A study of Mus musculus with 10 samples.

Results

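The transcripts of 9 cathepsins and of cystatin C were followed in microglia of mice given the colony stimulating factor 1 receptor (CSF1R) kinase inhibitor GW2580. The 10 genes (Ctsa, Ctsb, Ctsc, Ctsd, Ctsf, Ctsh, Ctsl, Ctss, Ctsz and Cst3) were taken as a list of symbols and matched by NCBI gene identifier to 10 of the 46152 genes counted, and all 10 passed the filter on low counts. C57BL/6J mice of both sexes, 8 to 12 weeks of age, were gavaged for 8 days with GW2580 at 80 mg/kg/d or with its vehicle alone, a solution of Tween 80 and hydroxymethyl propyl-cellulose. Each group had 5 mice with 1 library each, 2 from males and 3 from females. Cells were taken from the whole population that a Percoll gradient and magnetic CD11b selection retain, so CD11b-bearing cells other than microglia can be present, and GW2580 given by mouth reaches cells outside the brain as well.

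Cathepsins are proteases of the lysosome. Those encoded by Ctsb, Ctsc, Ctsf, Ctsh, Ctsl, Ctss and Ctsz are cysteine proteases, Ctsd encodes an aspartic protease and Ctsa a serine carboxypeptidase. Cst3 encodes cystatin C, a secreted inhibitor that occupies the active site of cysteine cathepsins and does not inhibit the aspartic or serine enzymes. Microglia are a major source of these proteases in the brain, where they degrade phagocytosed material, and cathepsin S also trims the invariant chain of class II molecules.

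The libraries held 12550418 to 20854218 counted fragments with vehicle and 13228819 to 26079343 with GW2580, and the member counts ran from 3820 to 953436. Nothing in the sample labels goes beyond 1 library per mouse, and the p-values measure the spread between these libraries. All 10 microglial markers examined passed the filter, and their summed level was 13148 to 26161 CPM (counts per gene scaled to a common library total) with vehicle and 17991 to 58453 CPM with GW2580. The sum was lowest in vehicle 5 and highest in GW2580 3. A log2 fold change above 0 was found for 9 of these markers, with a median of 0.50 and a highest value of 1.14 (Cx3cr1). Their part in the member values was not tested. On the first principal component of 7580 genes above 20 CPM, which carried 47.1% of the variance, vehicle 1 to 4 lay between -40.5 and -35.0, and GW2580 1, 3 and 4 between 37.8 and 46.4. Vehicle 5, at 77.9, lay beyond those 3 GW2580 libraries, GW2580 5, at -45.8, lay beside the other vehicle libraries, and GW2580 2 lay between at -5.20. On the second component, with 26.5% of the variance, vehicle 5 was at 67.6 and vehicle 2 at 39.6. GW2580 1, 3 and 4 were there at -43.8, -0.61 and -52.7, and GW2580 5 at -5.23. Expression of sex-linked genes matched the labelled sex in 10 of 10 libraries, but both libraries numbered 5 came from females, so this check cannot tell these 2 apart, and whether their group labels were exchanged was not tested. All values below follow the labels. The fold changes of the members, their ratios and the list genes that were called are also given without vehicle 5 and GW2580 5. The first component was computed from genes that include the members, so leaving both libraries out also selects for separation of any gene that follows it. Vehicle 5 carried the highest summed choroid plexus and ependymal markers (27099 CPM against 167 to 3556 CPM in the other 9 libraries) and vehicle 2 the highest oligodendrocyte markers (17580 CPM against 158 to 3893 CPM). The share of fragments on no annotated exon was 56.1, 60.1 and 51.5% in GW2580 1, 4 and 5 and 38.4 to 49.1% in the other 7 libraries. The part these cells play in the results was not tested beyond the model with a glial and neuronal term given with the limits. No term for choroid plexus and ependymal markers was fitted.

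To show where the genes begin, the sequence from 250 bases before to 10 bases after the annotated start site is printed for the inhibitor and for 1 member of each of the sets that moved together across libraries. The sequences come from RefSeq on GRCm38.p6, 5′ to 3′ on the strand of the gene. Windows were found for 8 of the members, namely Cst3, Ctsa, Ctsc, Ctsd, Ctsf, Ctsl, Ctss and Ctsz. Ctsa had more than 1 window, so that these members had 9 windows, and Ctsb and Ctsh had none. Capitals mark a TATA box (TATAAA), a PU.1 motif of the macrophage factor PU.1 (GAGGAAGT) or an E-box (CACGTG, extended form TCACGTGA) read on either strand. The Cst3 window lies at chr2:148875503-148875762 on the minus strand, the Ctss window at chr3:95526536-95526795 on the plus strand and the Ctsd window at chr7:142387818-142388077 on the minus strand.
Cst3: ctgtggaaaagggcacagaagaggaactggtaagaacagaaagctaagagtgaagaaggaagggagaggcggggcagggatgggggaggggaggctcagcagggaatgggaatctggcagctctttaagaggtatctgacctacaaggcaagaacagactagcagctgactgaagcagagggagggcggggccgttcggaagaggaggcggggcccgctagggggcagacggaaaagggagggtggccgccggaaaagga
Ctss: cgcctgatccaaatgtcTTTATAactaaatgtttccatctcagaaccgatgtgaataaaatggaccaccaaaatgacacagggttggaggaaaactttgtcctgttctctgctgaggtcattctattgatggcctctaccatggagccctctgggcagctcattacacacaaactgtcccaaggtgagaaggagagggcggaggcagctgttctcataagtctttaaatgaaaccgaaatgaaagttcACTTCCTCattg
Ctsd: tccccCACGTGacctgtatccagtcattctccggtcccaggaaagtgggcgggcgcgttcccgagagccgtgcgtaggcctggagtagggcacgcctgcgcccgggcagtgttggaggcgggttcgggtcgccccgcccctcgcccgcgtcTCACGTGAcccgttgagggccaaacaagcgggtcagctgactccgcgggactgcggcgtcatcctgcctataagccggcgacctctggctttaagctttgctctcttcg

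Ctsd held an E-box 245 bases before the start site and an extended E-box, the sequence that TFEB and related lysosomal regulators bind, 99 bases before it. In Ctss the PU.1 motif began 2 bases before the start site and ran across it. In windows extended to 50 bases after the start site, an E-box was found in 4 of 9 member windows (Ctsa, Ctsd, Ctsf and Ctsl) and in 7.15% of all 32851 windows. The extended form, which contains the E-box, was found in Ctsa and Ctsd and in 0.974% of all windows. The PU.1 motif was found in Ctsc and Ctss and in 3.20% of all windows. The letters of a TATA box were found in Ctss alone among the members and in 13.6% of all windows. In Ctss they were read on the opposite strand, with the first base at -233 from the start site. Whether they act as a TATA box there was not tested. Cst3 and Ctsz held none of these motifs. These matches are descriptions of the sequence.

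Levels of different genes were compared as CPM divided by gene length in kilobases (RPKM). By mean RPKM, Cst3 was the most abundant of all 28419 genes tested in both groups. Ctsd was 7th with vehicle and 2nd with GW2580, and Ctss was 9th and 11th. The other members ranked from 35 (Ctsz) to 1247 (Ctsc) with vehicle and from 35 (Ctsz) to 750 (Ctsc) with GW2580. The median level with vehicle was 66451 RPKM for Cst3, 5991 for Ctsd, 5880 for Ctss and 1829 for Ctsz. Below these came Ctsh at 711 RPKM, Ctsb at 605, Ctsa at 519, Ctsl at 330, Ctsf at 198 and Ctsc at 56.0. Cst3 exceeded Ctsd in all 10 libraries on this scale. Most neighbours in this order kept their places in every library. Ctsd was above Ctss in 3 of 5 vehicle and 5 of 5 GW2580 libraries, Ctsh was above Ctsb in 4 of 5 and 1 of 5, and Ctsl was above Ctsf in 4 of 5 and 3 of 5, so these 3 pairs of neighbours did not keep their order within a group.

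The first question was whether the level of any member differed between GW2580 and vehicle. No member did by the rule applied to all genes, a fold change over 2 with an unadjusted p under 0.05 in edgeR's quasi-likelihood test. The count was 0 of 10, and by this rule 10.7% of the 28419 genes tested were called. No member had an unadjusted p under 0.05 at any fold, against 14.7% of all genes. DESeq2, edgeR's likelihood ratio test and limma-voom also called 0 of the 10. No gene of the whole table reached an adjusted p of 0.05 in edgeR, the smallest being 0.280, although 4186 genes had an unadjusted p under 0.05 and DESeq2 gave 177 genes an adjusted p under 0.05. Of the 9 cathepsins, 5 had a log2 fold change above 0 and 4 below, with a median of 0.07 beside -0.03 for all genes. In bulk RNA, fewer cells of a type and less RNA per cell cannot be told apart.

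Cst3, the inhibitor, was measured at 44799, 52895, 56563, 54745 and 5598 CPM in vehicle 1 to 5, after scaling by trimmed mean of M values (TMM). In GW2580 1 to 5 it was 8291, 26174, 20153, 4630 and 52485 CPM. Vehicle 5 lay at the level of GW2580 1 and 4, and GW2580 5 lay at the level of the first 4 vehicle libraries, so the groups overlapped. The spread over all 10 libraries was 12.2-fold, the widest of the members. Its mean of 42920 ± 21342 CPM (SD, n = 5) in the vehicle group compared with 22347 ± 18969 CPM (SD, n = 5) in the GW2580 group. Cst3 had a log2 fold change of -0.94 (SE 0.77, adjusted p = 0.571 in edgeR), and an exact permutation test over all splits of 5 and 5 libraries gave a two-sided p of 0.222.

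Without vehicle 5 and GW2580 5, Cst3 ran from 44799 to 56563 CPM in the 4 vehicle libraries and from 4630 to 26174 CPM in the 4 GW2580 libraries, and the groups did not overlap. The log2 fold change was then -1.91 (SE 0.86, adjusted p = 0.130 in edgeR), and with an unadjusted p under 0.05 Cst3 was called. The exact permutation p was 0.0286, the smallest that 70 splits of 4 and 4 can give. In the same 8 libraries 22.3% of all genes were called, with 15.2% of all genes lower with GW2580, and 25.4% of all genes had groups that did not overlap. Cst3 was thus 1 of many genes that separated when both libraries were left out. The mean log2 CPM of 76 ribosomal protein genes was also high where Cst3 was high, at 6.29 to 6.64 in vehicle 1 to 4 and 7.07 in GW2580 5, against 5.23 in vehicle 5 and 3.56 to 5.46 in GW2580 1 to 4. With that mean as a term in the model, the log2 fold change of Cst3 was 0.21 and it was not called.

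**Figure D1:**
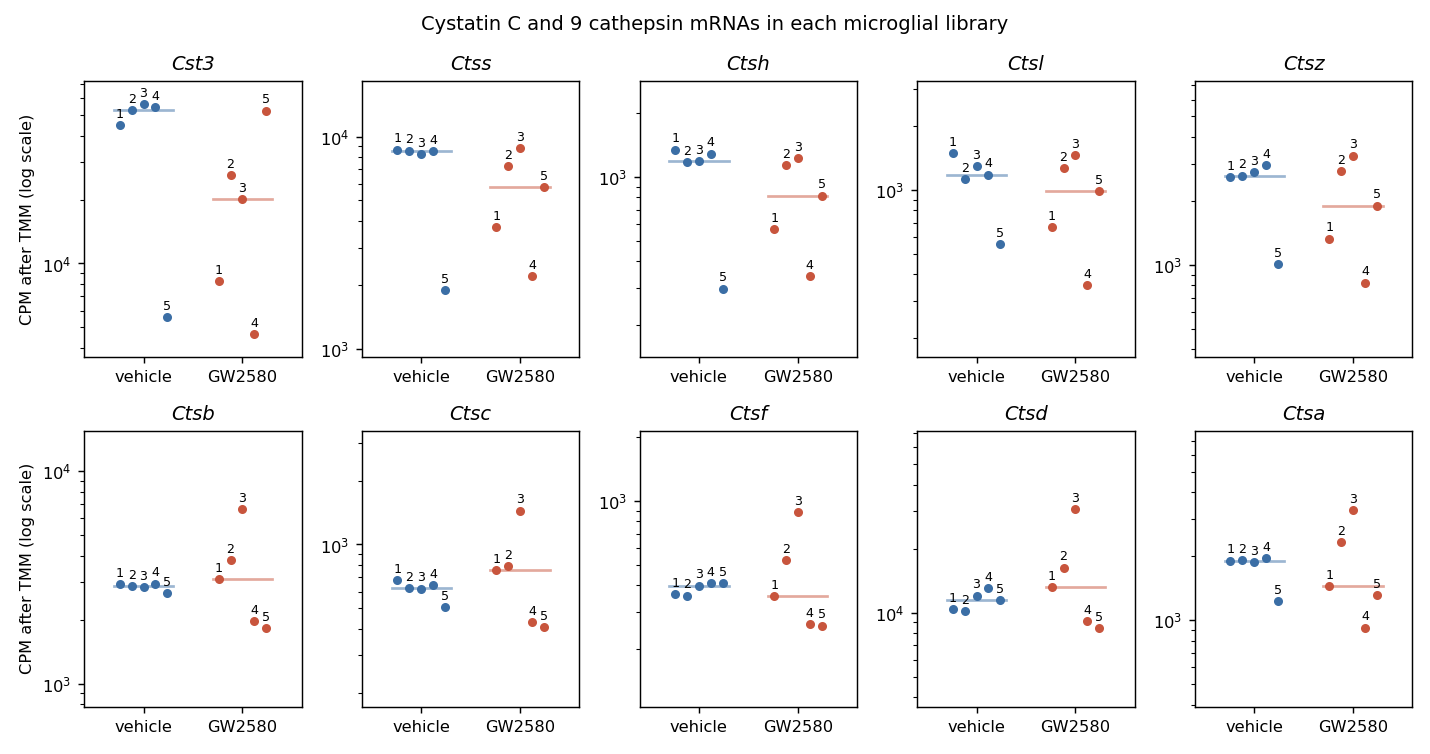
CPM after TMM scaling (log axis, the same 20-fold span in every panel) of Cst3 and the 9 cathepsins in the 5 vehicle (blue) and 5 GW2580 (red) libraries; each point is 1 library marked with its replicate number and the bars are group medians. In the upper row vehicle 5 lies far below the other vehicle libraries, while in Ctsb, Ctsc, Ctsf and Ctsd it lies near them.

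Cathepsin S, encoded by Ctss, is a cysteine protease active at neutral pH and the most abundant of the 7 cysteine cathepsin transcripts here per length. Ctss was measured at 8671, 8585, 8271, 8508 and 1890 CPM in vehicle 1 to 5. It was at 3731, 7285, 8825, 2201 and 5778 CPM in GW2580 1 to 5. Vehicle 1 to 4 lay within a narrow range, vehicle 5 was the lowest of all 10 libraries, and the GW2580 values spread from near vehicle 5 to just above the other vehicle libraries. Ctss had a log2 fold change of -0.37 (SE 0.54, adjusted p = 0.767 in edgeR). In the 8 libraries left without the numbers 5 it was -0.73 (adjusted p = 0.416), and with the ribosomal protein mean as a term in the model of all 10 it turned to 0.41.

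Ctsh, which encodes an aminopeptidase of the lysosome, followed Ctss closely. It was measured at 1344, 1171, 1187, 1287 and 297 CPM in vehicle 1 to 5, and at 567, 1132, 1224, 339 and 816 CPM in GW2580 1 to 5. The same libraries were low as for Ctss. Its log2 fold change was -0.37 (SE 0.48, adjusted p = 0.729), and -0.71 (adjusted p = 0.288) in the 8 libraries. Ctsl, an endopeptidase of broad specificity, ran from 554 to 1493 CPM with vehicle and from 355 to 1452 CPM with GW2580 (log2 fold change -0.25, SE 0.44, adjusted p = 0.807). Ctsz, a carboxypeptidase also called cathepsin X, ran from 1005 to 2957 CPM and from 825 to 3269 CPM (log2 fold change -0.24, SE 0.47, adjusted p = 0.834). For both, vehicle 5 was the lowest vehicle library and GW2580 4 the lowest GW2580 library. In the 8 libraries the log2 fold changes of Ctsl and Ctsz were -0.54 and -0.51 (adjusted p = 0.436 and 0.508). With the ribosomal protein term, those of Ctsh, Ctsl and Ctsz turned to 0.36, 0.35 and 0.37, and none was called. With the share of fragments on no exon as a term, those of Ctsh, Ctsl, Ctsz and Ctss were -0.18, -0.014, -0.023 and -0.15.

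The members Ctsb, Ctsc, Ctsf and Ctsd had a different profile. Ctsb, which encodes an enzyme with endopeptidase and dipeptidyl carboxypeptidase activity, was measured at 2949, 2870, 2842, 2956 and 2672 CPM in vehicle 1 to 5. In GW2580 1 to 5 it was 3097, 3819, 6630, 1962 and 1817 CPM. The vehicle libraries, vehicle 5 included, lay within 1.11-fold of each other, while GW2580 1, 2 and 3 lay above all of them and GW2580 4 and 5 below all of them. Ctsb had a log2 fold change of 0.28 (SE 0.44, adjusted p = 0.787). Ctsc, the dipeptidyl peptidase that activates granule serine proteases, ran from 507 to 681 CPM with vehicle and from 408 to 1444 CPM with GW2580 (log2 fold change 0.32, SE 0.40, adjusted p = 0.723). Ctsf ran from 358 to 412 CPM and from 259 to 886 CPM (log2 fold change 0.24, SE 0.39, adjusted p = 0.795). In both genes, as in Ctsb, GW2580 3 was the highest library and GW2580 5 the lowest. In the 8 libraries the log2 fold changes of Ctsb, Ctsc and Ctsf were 0.31, 0.31 and 0.30 (adjusted p = 0.700, 0.624 and 0.623). With the share of fragments on no exon as a term in the model of all 10, they were 0.54, 0.56 and 0.50, and no member was called.

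Ctsd, the major aspartic protease of the lysosome, was measured at 10425, 10164, 12020, 13019 and 11484 CPM in vehicle 1 to 5. In GW2580 1 to 5 it was 13168, 16288, 30665, 9109 and 8433 CPM. GW2580 1 to 3 lay above every vehicle library and GW2580 4 and 5 below every one. Its log2 fold change was 0.44 (SE 0.51, adjusted p = 0.695 in edgeR), and 0.50 (adjusted p = 0.627) without vehicle 5 and GW2580 5. Ctsa, whose carboxypeptidase also protects lysosomal beta-galactosidase and neuraminidase, had 1908, 1924, 1872, 1954 and 1228 CPM in vehicle 1 to 5 and 1451, 2341, 3303, 923 and 1307 CPM in GW2580 1 to 5. Its log2 fold change was 0.07 (SE 0.42, adjusted p = 0.950), or -0.04 (adjusted p = 0.967) in the 8 libraries, and vehicle 5 and GW2580 4 were the lowest libraries of their groups.

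The spread of Ctsb, Ctsc, Ctsf and Ctsd among the GW2580 libraries changed with the scaling. The TMM factors ran from 0.691 in GW2580 3 to 1.61 in GW2580 4. The range of Ctsd over the GW2580 libraries was 3.64-fold with TMM and 2.28-fold by library size alone, and GW2580 5 was the lowest of them for all 4 genes on both scales. Scaled by library size alone, an alternative in which the median log2 fold change of all genes was 0.23 in place of -0.03, Ctsd was 8946 to 12700 CPM with vehicle. GW2580 1 to 5 then had 16235, 15701, 21201, 14646 and 9313 CPM, so that GW2580 1 to 4 exceeded the highest vehicle value and GW2580 5 did not. The log2 fold change of Ctsd was then 0.54 (SE 0.29, adjusted p = 0.363 in edgeR), which is 0.31 above the median of all genes, and the exact permutation p, added after the data had been seen, was 0.0476. Those of Ctsb, Ctsc and Ctsf were 0.159, 0.135 and 0.175. No member other than Ctsd had an exact permutation p under 0.05 on this scale with all libraries. The share of all genes under 0.05 by that test was not computed, so the value of Ctsd cannot be set against it. With this scaling 63.5% of all genes had a fold change above 0. With both libraries numbered 5 left out, Ctsb, Ctsc, Ctsf and Ctsd each had an exact permutation p of 0.0286, the smallest possible, with every GW2580 library above every vehicle library, as had 14.5% of all genes. Cst3 and Ctss had the same p in the opposite direction, with every GW2580 library below every vehicle library, as had 9.22% of all genes. Ctss was then at 3539 to 7022 CPM with GW2580 and 7556 to 8446 CPM with vehicle, and Cst3 at 7444 to 25231 CPM and 43634 to 54172 CPM. On the TMM scale in the same 8 libraries the exact permutation p-values of Ctsb, Ctsc, Ctsf and Ctsd were 0.600, 0.571, 0.686 and 0.314, and that of Ctss was 0.143. The separation of these 5 cathepsin transcripts was thus seen on the library-size scale in the 8 libraries and not on the TMM scale. Without GW2580 3 alone, the TMM log2 fold changes were -0.094 for Ctsb, -0.040 for Ctsc, -0.15 for Ctsf and 0.042 for Ctsd.

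**Figure D2:**
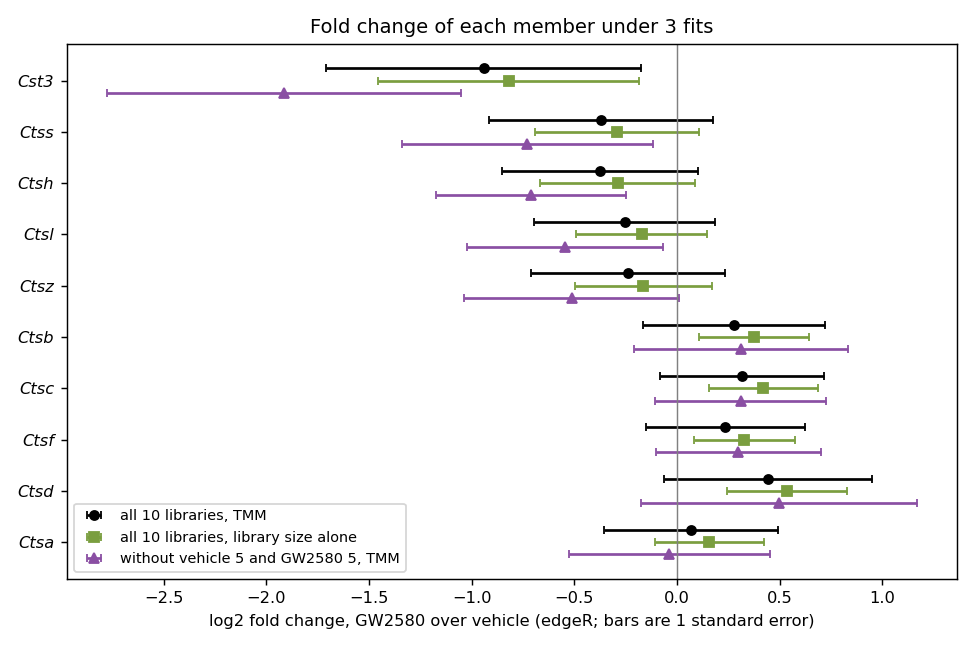
Log2 fold change (GW2580 over vehicle) of each member from edgeR, with bars of 1 standard error, for all 10 libraries with TMM (circles), all 10 with library size alone (squares) and 8 libraries without vehicle 5 and GW2580 5 with TMM (triangles). Cst3 lies farthest from 0, at -0.94 with all libraries and -1.91 without those 2, and Ctsb, Ctsc, Ctsf and Ctsd lie above 0 in all 3 fits, each of which includes GW2580 3.

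The second question was how the proteases stood to their inhibitor. Within a library, the log2 ratio of a cathepsin to Cst3 does not depend on the scaling of that library. The mean ratio was higher with GW2580 than with vehicle for all 9 cathepsins, by 0.71 for Ctsh, Ctsl and Ctss, 0.74 for Ctsz, 1.00 for Ctsa, 1.13 for Ctsf, 1.17 for Ctsb, 1.22 for Ctsc and 1.34 for Ctsd. None of the 9 comparisons had an exact permutation p under 0.05 (0.175 to 0.262, and 0.549 to 0.550 adjusted over all genes). Of the 28418 genes compared, 6.99% did in this direction. Leaving out GW2580 5 alone gave 1.10 for Ctsh and 1.09 for Ctss (exact permutation p = 0.0238 each). The share of all genes under 0.05 in that setting was not computed, so these values cannot be set against it. A ratio to Cst3 above that of vehicle was found for 92.7% of all genes, with a median difference of 1.08, so the 9 cathepsins shared the direction of most genes. With the mean of 76 ribosomal protein genes regressed out, all 9 differences were below 0, from -0.30 for Ctsf to -0.021 for Ctss, with exact permutation p-values of 0.524 to 0.889. The log2 ratio of Ctss to Cst3 was -2.37, -2.62, -2.77, -2.69 and -1.57 in vehicle 1 to 5, and -1.15, -1.85, -1.19, -1.07 and -3.18 in GW2580 1 to 5. Vehicle 5 had the highest ratio of its group and GW2580 5 the lowest of all 10 libraries, and GW2580 1, 3 and 4 were above vehicle 5. The same 3 libraries exceeded vehicle 5 for Ctsh, and GW2580 1 and 4 did for Ctsc. For Ctsb, Ctsf, Ctsl, Ctsz, Ctsa and Ctsd no GW2580 library did, the ratio of Ctsd being 1.04 in vehicle 5 and at most 0.98 with GW2580.

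Without these 2 libraries the differences were 1.30 (Ctss) to 2.59 (Ctsd), each with an exact permutation p of 0.0286, the smallest possible, and the groups did not overlap for any of the 9. In the same comparison 65.5% of all genes had GW2580 ratios to Cst3 above every vehicle ratio. The aspartic and serine cathepsins Ctsd and Ctsa, which cystatin C does not inhibit, had differences of 2.59 and 2.03, and the 7 cysteine cathepsins had differences of 1.30 to 2.41. The ratios of target and non-target proteases therefore overlapped in size, and the difference between the classes was not tested.

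**Figure D3:**
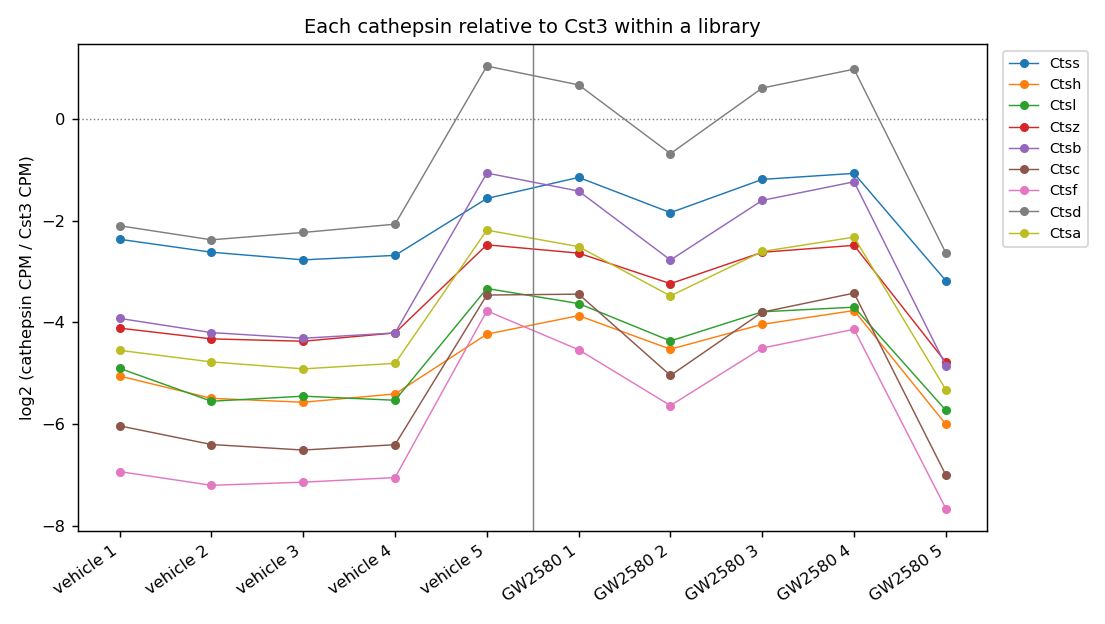
Log2 of the CPM of each cathepsin over the CPM of Cst3 in each library (lines join the values of a gene; the dotted line marks equal CPM; the vertical line separates the groups). All 9 ratios are high in vehicle 5 and GW2580 1, 3 and 4, intermediate in GW2580 2, and low in vehicle 1 to 4 and GW2580 5.

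Per length, the 7 cysteine cathepsins summed to 8418 ± 2951 RPKM (SD, n = 5) in the vehicle group and 7026 ± 3360 RPKM (SD, n = 5) in the GW2580 group. Ctss made up 41.5 to 61.7% of that sum with vehicle and 51.1 to 60.3% with GW2580. The Cst3 level was 5.70, 6.91, 7.45, 6.93 and 2.23 times the sum in vehicle 1 to 5. In GW2580 1 to 5 it was 2.12, 3.60, 2.21, 1.95 and 9.95 times the sum. Per length, transcripts of the inhibitor thus exceeded those of the proteases it inhibits in every library, with the highest and the lowest excess both in GW2580 libraries. In CPM, without length, Cst3 was below the sum in vehicle 5 (5598 against 7333 CPM). It was also below it in GW2580 1, 3 and 4 (8291, 20153 and 4630 against 10507, 23731 and 6375 CPM), and above it in the other libraries. These are transcript levels, and neither protein nor protease activity was measured in these files.

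**Figure D4:**
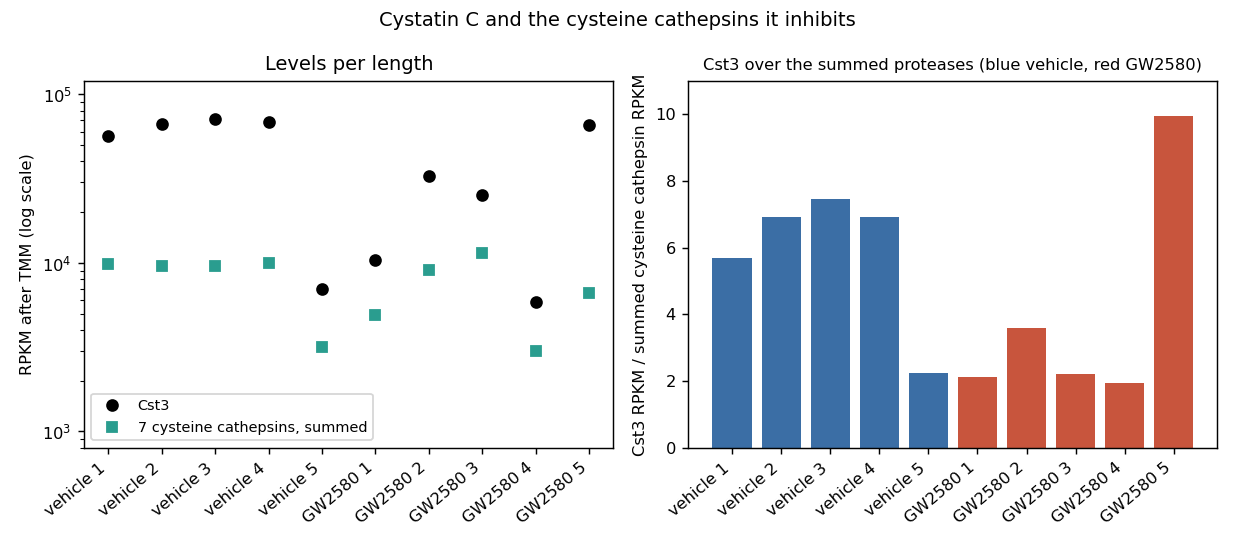
Left, RPKM (log axis) of Cst3 (circles) and the sum of 7 cysteine cathepsins (squares) in each library; right, their ratio as bars from 0. The ratio is 5.70 to 7.45 in vehicle 1 to 4 and 9.95 in GW2580 5, and 1.95 to 3.60 in the other 5 libraries.

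Among themselves the members fell into 2 sets across the 10 libraries. These sets were seen in the data and are given as descriptions. Ctsb, Ctsc, Ctsd and Ctsf moved together, with Pearson correlations of log2 CPM of 0.92 to 0.98 after TMM and 0.86 to 0.97 by library size alone (n = 10 libraries, which share their scaling factor and sequencing depth). Ctsh, Ctsl, Ctss and Ctsz moved together, with correlations of 0.94 to 1.00 on either scale, and followed Cst3 at 0.85 to 0.90 after TMM. Cst3 and the first set had correlations of -0.04 to 0.10 after TMM and -0.40 to -0.21 by library size alone. Ctsa lay between the sets, at 0.80 to 0.88 with the first and 0.81 to 0.89 with the second. The exonic lengths used in the counting were 1917 to 11142 bases in the first set, 1440 to 3576 bases in the second, 796 bases for Cst3 and 3675 bases for Ctsa. When a smooth trend on length was removed, the log2 fold changes were -0.92 for Cst3, -0.19 for Ctss and 0.64 for Ctsd. Among the members with a window, which leaves out Ctsb of the first set and Ctsh of the second, these motifs occurred in both sets. An E-box stood before Ctsd and Ctsf of the first and Ctsl of the second. A PU.1 motif was found in the windows of Ctsc of the first and Ctss of the second.

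Ratios to Ctsb, which also do not depend on the scaling and were added after the data had been seen, show the sets within each library. The log2 ratio of Ctsc to Ctsb had an SD of 0.10 over all 10 libraries, that of Ctsf 0.12 and that of Ctsd 0.15. Only 0.00352%, 0.0176% and 0.0387% of the 28418 other genes had a smaller SD relative to Ctsb, a measure in which genes of low count have a larger counting error. For Ctsc that share is 1 gene. Ctsc, Ctsf and Ctsd had been grouped with Ctsb by their correlation in these same libraries. The small SDs therefore restate that grouping and do not test it. The log2 ratio of Ctss to Ctsb was 1.56, 1.58, 1.54, 1.53 and -0.50 in vehicle 1 to 5. In GW2580 1 to 5 it was 0.27, 0.93, 0.41, 0.17 and 1.67. The first 4 vehicle libraries stood within 0.06 of each other, and every GW2580 library but GW2580 5 stood below them. With all libraries the difference for Ctss was -0.45 (exact permutation p = 0.444).

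Without vehicle 5 and GW2580 5, the ratios to Ctsb were lower with GW2580 by 1.11 for Ctss, 1.07 for Ctsh, 0.92 for Ctsl, 0.90 for Ctsz and 0.37 for Ctsa on the log2 scale, each with the smallest possible exact permutation p of 0.0286 and no overlap between groups. Of all genes, 15.1% had GW2580 ratios to Ctsb below every vehicle ratio in these 8 libraries, and 0.0633% in all 10. The ratios of Ctsc and Ctsf differed by 0.01 and -0.02 (exact permutation p = 0.771 each). That of Ctsd was higher by 0.18 (exact permutation p = 0.114), and with all 10 libraries by 0.17 (exact permutation p = 0.0635). It passed 0.05 when either vehicle 4 or vehicle 5 was left out alone (0.21 and 0.20, exact permutation p = 0.0317 and 0.0397). The share of all genes that did so in these settings was not computed.

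**Figure D5:**
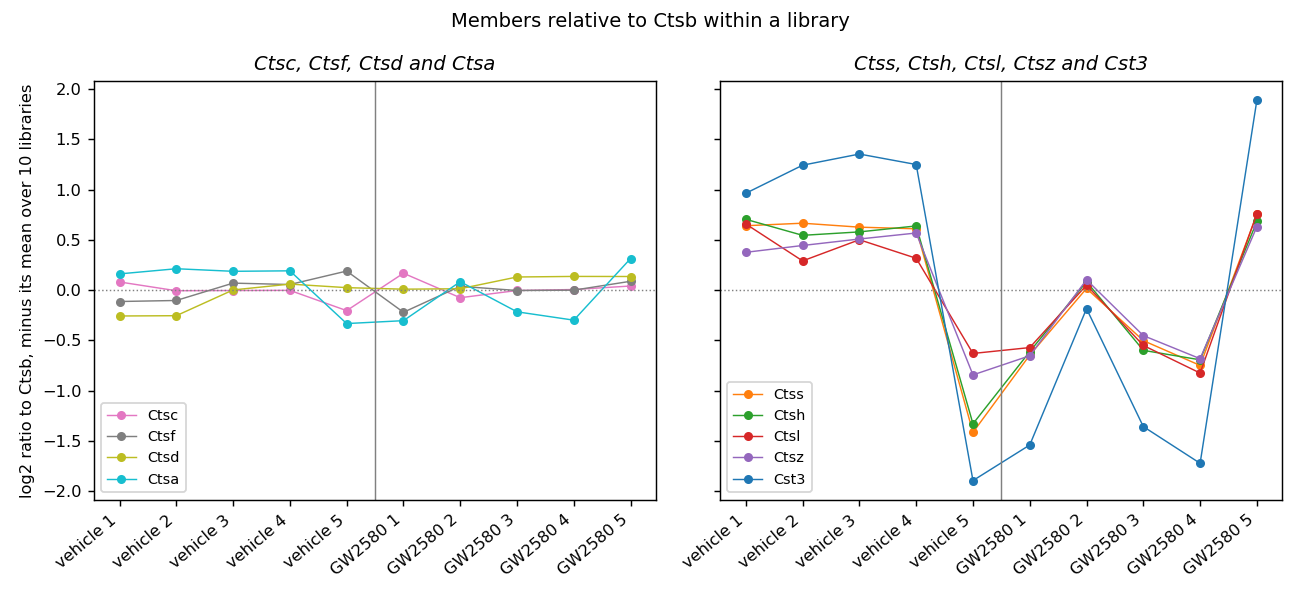
Log2 ratio of each member to Ctsb in each library, with the mean over the 10 libraries subtracted (lines join the values of a gene; the vertical line separates the groups). Ctsc, Ctsf and Ctsd stay within 0.3 of their means in every library, while Ctss, Ctsh, Ctsl, Ctsz and Cst3 are low together in vehicle 5 and GW2580 1, 3 and 4.

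Genes outside the list that were most like the members were found by the correlation of log2 CPM over the 10 libraries. For Cst3 these were Hspb3 (r = 0.996), Batf3 (0.994), Tnfrsf17 (0.993), Mzt2 (0.993) and Ang (0.992). For Ctsd they were Trim27 (0.988), Pacc1 and Derl1 (0.982 each), Srprb (0.980) and Mgme1 (0.979). For Ctss the closest gene of all those tested was its fellow member Ctsh (0.997), followed by Rnf113a2 (0.997), the Fc receptor gene Fcgr3 (0.996), Ms4a6b (0.993) and Ms4a6d (0.990). The closest cathepsin to Cst3 was Ctss, at place 840 among all genes (r = 0.90).

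Treatment effects were compared between the sexes with an interaction term. Fitted separately, the log2 fold change of Cst3 was -1.60 in males and -0.58 in females. In 1 model of all libraries the interaction term, males minus females, was -0.91 (SE 1.81). No member had an unadjusted p under 0.05 for this term in edgeR on the TMM or the library-size scale, and with 2 males and 3 females per group its standard errors were 0.92 to 1.81 after TMM.

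Other genes of the pathway were followed by lists. Of 52 such genes tested, 3 were higher and 6 lower with GW2580 by the fold and p rule (17.3%, against 10.7% of all genes) and none had an adjusted p under 0.05, although 4186 genes of the whole table had an unadjusted p under 0.05 in edgeR. Their median log2 fold change was 0.13. Without vehicle 5 and GW2580 5, 8 of 51 tested were called, 4 higher and 4 lower (15.7%, against 22.3% of all genes), and 5 of the 8 were also called with all libraries.

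Among the 8 further cystatins tested, 2 were lower. Cst7, which encodes cystatin F, an inhibitor of cathepsin C inside cells of myeloid lineage, was measured at 34.0, 29.2, 31.2, 28.4 and 7.98 CPM in vehicle 1 to 5. It was at 8.11, 21.1, 13.9, 3.31 and 15.3 CPM in GW2580 1 to 5. As with Cst3, vehicle 5 stood with the GW2580 libraries, but GW2580 5 did not reach the other vehicle libraries. Cst7 had a log2 fold change of -1.08 (adjusted p = 0.318 in edgeR), and -1.50 (adjusted p = 0.0263) without vehicle 5 and GW2580 5. Cstb, which encodes the cytosolic inhibitor cystatin B, had the highest CPM of them, at 182, 130, 129, 108 and 30.3 CPM in vehicle 1 to 5 and 20.6, 54.4, 42.7, 10.6 and 211 CPM in GW2580 1 to 5. GW2580 5 was its highest library. Cstb had a log2 fold change of -0.77 (adjusted p = 0.602), and -2.19 (adjusted p = 0.00849 in edgeR) without both libraries numbered 5. The second lower cystatin, Stfa2l1, was at 9.02 CPM in vehicle 1 and 0.225 to 2.17 CPM in the other 9 libraries, and it did not pass the filter in the 8 libraries. Vehicle 1 also had the highest summed monocyte and granulocyte markers (13168 CPM against 176 to 3631 CPM), and their part in this call was not tested. Cst6 was at 0.393 to 8.54 CPM.

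Of 5 further inhibitors of cathepsins, 1 was lower, Ctla2a (log2 fold change -1.41, adjusted p = 0.307), which had 13.3 CPM in vehicle 5 and 0.833 to 3.54 CPM elsewhere. Leaving out vehicle 5 and GW2580 5 gave -0.53 (adjusted p = 0.429). The others of highest CPM, Serpinb1a, Serpinb6a and Ctla2b, had log2 fold changes of -0.22, -0.73 and -0.32 (adjusted p = 0.893, 0.424 and 0.642).

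Of 5 further cathepsins, 1 was lower, Ctsw (log2 fold change -2.30, adjusted p = 0.280 in edgeR), a protease of cytotoxic lymphocytes. It had 82.1 CPM in vehicle 5 and 2.78 to 8.23 CPM in the other 9 libraries, and -0.71 (adjusted p = 0.153) was the log2 fold change without vehicle 5 and GW2580 5. The summed lymphocyte markers were 420 CPM in vehicle 5 and 19.2 to 88.6 CPM in the others. Ctso, the one of highest CPM, had a log2 fold change of 0.37 (adjusted p = 0.630). Ctsg had -0.80 (adjusted p = 0.728). Of 7 placental cathepsins tested, 2 were higher, Ctsm (log2 fold change 1.24, adjusted p = 0.280) and Cts7 (1.37, adjusted p = 0.310), at no more than 5.91 CPM in any library. In the 8 libraries they were at 1.02 and 1.16 (adjusted p = 0.0678 and 0.107), and Cts3, named after its values were seen, was also called, at 1.59 (adjusted p = 0.0181). Cts8, Ctsj and Cts6 had log2 fold changes of -0.25, 0.74 and 0.73 (adjusted p = 0.767, 0.531 and 0.375).

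None of 6 other lysosomal peptidases was called, with a median log2 fold change of 0.18. Lgmn, the asparaginyl endopeptidase that processes several cathepsin precursors, ran from 1409 to 3338 CPM with vehicle and from 1904 to 5945 CPM with GW2580 (log2 fold change 0.25, adjusted p = 0.818), Tpp1 had 0.36 (adjusted p = 0.715) and Scpep1 0.10 (adjusted p = 0.910). None of 6 genes of mannose 6-phosphate and sortilin delivery was called, M6pr having a log2 fold change of 0.44 (adjusted p = 0.583), Nagpa 0.83 (adjusted p = 0.353) and Gnptg -0.56 (adjusted p = 0.478). None of 3 partner genes was called. Their log2 fold changes were 0.54 for Grn (adjusted p = 0.580 in edgeR), 0.21 for Psap (adjusted p = 0.901) and 0.22 for Glb1 (adjusted p = 0.816). Neu1 had no counts in any library. Fragments that aligned to more than 1 place were not counted, and what part that has in this zero was not tested. The zero is therefore not read as absence of the Neu1 transcript.

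Of the 4 regulators of lysosomal genes, 1 was called in each fit, and it was not the same gene. Tfec was at 0.955 to 3.68 CPM with vehicle and 4.50 to 5.44 CPM with GW2580, with every GW2580 library above every vehicle library (log2 fold change 1.07, adjusted p = 0.280 in edgeR). By TMM, 2.04% of all genes had GW2580 levels above every vehicle level. Without vehicle 5 and GW2580 5 the log2 fold change of Tfec was 0.74 (adjusted p = 0.100), and it was not called. Tfe3 had a log2 fold change just under 1.00 (adjusted p = 0.281 in edgeR), with 75.1 to 99.6 CPM in vehicle 1 to 5 and 169, 126, 351, 141 and 76.2 CPM in GW2580 1 to 5. GW2580 5 again stood with the vehicle libraries. Without it and vehicle 5, Tfe3 was called, at 1.09 (adjusted p = 0.0439 in edgeR). Tfeb had 0.41 (adjusted p = 0.621) and Mitf -0.06 (adjusted p = 0.939).

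Of 3 class II processing genes tested, 1 was lower, Ifi30, the thiol reductase of antigen-processing compartments (log2 fold change -1.20, adjusted p = 0.303 in edgeR). It had 70.4, 44.0, 62.9, 55.3 and 12.5 CPM in vehicle 1 to 5 and 13.6, 26.8, 28.4, 5.73 and 32.0 CPM in GW2580 1 to 5. Leaving out both libraries numbered 5 gave -1.74 (adjusted p = 0.0141). Cd74, which encodes the invariant chain that cathepsin S trims, ran from 1046 to 2105 CPM with vehicle and from 624 to 2325 CPM with GW2580 (log2 fold change -0.55, adjusted p = 0.566), and Ciita had -0.27 (adjusted p = 0.726). H2-Ab1, H2-Eb1 and H2-DMb1 had no counts in any library. Fragments that aligned to more than 1 place were not counted, and what part that has in these zeros was not tested.

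Of 6 substrates of cathepsin C, 1 was lower, Gzma (log2 fold change -1.62, adjusted p = 0.280 in edgeR), with 8.10 to 15.4 CPM in the vehicle and 0.611 to 7.18 CPM in the GW2580 libraries. In the 8 libraries it was at -1.92 (adjusted p = 0.0288). Of the 7 lymphocyte markers, 4 were also lower with GW2580 and 2 were called in the 8 libraries, with a summed level of 32.2 to 420 CPM with vehicle and 19.2 to 83.8 CPM with GW2580. Nkg7, a marker of cytotoxic lymphocytes named after its values were seen, was at 66.3, 46.1, 22.9, 18.1 and 78.2 CPM in vehicle 1 to 5. In GW2580 1 to 5 it was at 10.1, 28.1, 1.22, 3.36 and 16.9 CPM (log2 fold change -1.96, adjusted p = 0.280 in edgeR, and -1.93, adjusted p = 0.0703, in the 8 libraries). As for Gzma, vehicle 5 was its highest library and GW2580 3 its lowest, and the part of these cells in the Gzma values was not tested. The cells had been selected for CD11b, and the authors describe most contaminating cells as monocytes or granulocytes that bear it. Elane and Prtn3, proteases of neutrophil granules, had log2 fold changes of -0.56 (adjusted p = 0.841) and -0.45 (adjusted p = 0.879), and Gzmb had -0.41 (adjusted p = 0.716). The summed monocyte and granulocyte markers were 13168 CPM in vehicle 1 and 176 to 3631 CPM in the other 9 libraries.

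The other marker lists had summed levels of 192 to 3081 CPM with vehicle and 195 to 638 CPM with GW2580 for astrocytes, 59.4 to 495 and 50.8 to 148 CPM for neurons, 81.3 to 201 and 94.0 to 127 CPM for endothelial and mural cells, 88.6 to 113 and 54.2 to 281 CPM for border macrophages, and 49.1 to 2088 and 37.6 to 389 CPM for erythroid cells. No marker of these lists was used to select members.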

How the data were processed

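RNA of CD11b-selected microglia was amplified with a SMART-Seq v4 kit and sequenced as read pairs. The authors trimmed the reads and used STAR to align them to GRCm38, and counted fragments per RefSeq gene with featureCounts (version 1.6.3 per the file headers), without strand; the deposited values are raw counts per gene with the exonic length of each gene. Fragments on no exon (38.4 to 60.1% of records), on several places (15.1 to 26.1%) or ambiguous were left out of library sizes. Without molecular identifiers, reads are not independent molecules. Since strand was not used, a gene and an overlapping antisense gene cannot be told apart. Symbols were matched for 46029 of the genes through RefSeq.

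A gene was kept if it was above 1 CPM in 3 or more libraries. Counts were scaled by TMM and tested with edgeR's quasi-likelihood test (edgeR 4.0.16, limma 3.58.1, R 4.3.3), with treatment as the only term and Benjamini-Hochberg adjustment over all genes; a call was a fold over 2 with an unadjusted p under 0.05. Single levels and log2 ratios (prior count of 2) were tested with two-sided exact permutation tests over libraries. The scripts were tested on simulated data. Alternatives were DESeq2 1.42.0, edgeR's likelihood ratio test, limma-voom, other scalings and filters, added model terms, a replicate block and left-out libraries. The members and lists were chosen with earlier results of these data known. Named genes were the members, the 3 of highest mean CPM and every called gene of each list, and the 5 genes most like Cst3 and Ctsd; other genes named were chosen after their values were seen, as were the comparison with Ctss and the ratios to Ctsb.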

Additional observations from a re-analysis of the deposited data

Results flagged for a closer look

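Of 38 groups of values tested, which include those of GW2580, 11 were flagged by Dixon's ratio (critical value 0.710 for 5 values). In all 11 vehicle 5 stood apart from the other 4 vehicle libraries, and no other library was flagged in any group. Chance gives about 1 in 20 groups if the groups are independent. These were not, since members moved together across libraries, so the 11 flags cannot be set against that rate as separate events. In CPM after TMM it was the lowest vehicle library for Cst3 (5598, next 44799), Ctss (1890, next 8271), Ctsz (1005, next 2583), Ctsh (297, next 1171) and Ctsa (1228, next 1872). In the log2 ratio to Cst3 it was the highest vehicle library for Ctsd (1.04, next -2.07), Ctsb (-1.07, next -3.92), Ctsa (-2.19, next -4.55), Ctsz (-2.48, next -4.12), Ctsc (-3.47, next -6.04) and Ctsf (-3.78, next -6.94). The 6 ratios share the Cst3 value of that library. Vehicle 5 also had the highest summed choroid plexus and ependymal, lymphocyte and erythroid markers of the 10 libraries, at 27099, 420 and 2088 CPM, and their part in these values was not tested. GW2580 5 met this criterion for no member, although it lay on the vehicle side of the first principal component.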

How the results depend on the processing

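The number of members called stayed at 0 in all alternatives but 1, and the median log2 fold change of the 9 cathepsins stayed between -0.24 and 0.35. Without vehicle 5 and GW2580 5 there was 1 called member, Cst3 (-1.91), and 9 cathepsins had a ratio to Cst3 at exact permutation p = 0.0286, against 0 with all libraries. With 1 library left out at a time, Cst3 ran from -1.63 to -0.68 and was never called. The median of the cathepsins then ran from -0.24 to 0.25, and members called stayed at 0. Ratios to Cst3 with an exact permutation p under 0.05 numbered 0 to 2. The share of all genes was not computed for these settings. Directions turned with a ribosomal protein term in the model: Cst3 0.21, Ctsh 0.36, Ctsl 0.35, Ctss 0.41 and Ctsz 0.37, and ratios to Cst3 of -0.29 (Ctsb), -0.22 (Ctsc), -0.30 (Ctsf), -0.073 (Ctsh), -0.14 (Ctsl), -0.021 (Ctss), -0.14 (Ctsz), -0.20 (Ctsa) and -0.13 (Ctsd); the cause was not tested. Ctsa was -0.056 with limma-voom, -0.054 with the replicate block, -0.055 with a glial and neuronal term, -0.048 without vehicle 2 and vehicle 5, -0.036 without vehicle 5 and GW2580 5 and -0.11 in males alone. With the glial and neuronal term Cst3 was at -1.25 (unadjusted p = 0.130 in edgeR). The ratios to Cst3 were then higher with GW2580 by 0.87 to 1.71 (exact permutation p = 0.0714 to 0.119). With 1 library left out the lowest values of members that turned were -0.24 (Ctsa), -0.094 (Ctsb), -0.040 (Ctsc) and -0.15 (Ctsf), and the highest 0.25, 0.43, 0.48 and 0.39, and Ctsf relative to Ctsb ran from -0.073 to 0.011. By library size alone the sex differences of Ctsb, Ctsc and Ctsa were 0.17, 0.12 and 0.054 in place of -0.048, -0.12 and -0.15. Ranked by CPM without length, 4 of 10 members kept their place in the vehicle group. Ctsl, which kept place 8 there, moved from 8 to 7 in the GW2580 group. Replicate numbers did not pair the libraries (correlations of their deviations -0.57 to 0.39); with the replicate block the log2 fold change of Cst3 was -1.36, no member was called and no ratio to Cst3 had an exact permutation p under 0.05, where 5 pairs allow none. Of 280 member fold changes under 28 alternatives, 262 kept direction and side of the threshold, 17 turned and 1 passed it.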

Other observations

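Genes of neutrophil granules that cathepsin C activates were higher in some libraries of both groups. Elane was at 409, 147, 30.1, 22.9 and 18.8 CPM in vehicle 1 to 5 and at 44.5, 356, 1.78, 12.7 and 11.4 CPM in GW2580 1 to 5. Prtn3 was at 97.9, 27.6, 9.11, 3.73 and 6.07 CPM and at 12.2, 88.6, 0.222, 1.80 and 3.32 CPM, and Ctsg, a cathepsin of neutrophil granules, at 44.5, 15.5, 3.59, 1.21 and 3.09 CPM and at 3.80, 29.7, 0.444, 2.41 and 2.78 CPM. These genes were chosen after their values were seen.

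Of 13 genes tested from the lists of cathepsin partners, delivery and regulators, 8 had their highest vehicle level in vehicle 5, among them Glb1, Psap, Sort1, Gnptab and Tfeb (143, 5206, 151, 34.8 and 109 CPM, against at most 65.1, 1487, 57.6, 14.9 and 60.0 CPM in vehicle 1 to 4). With all libraries their log2 fold changes were 0.22, 0.21, 0.34, 0.15 and 0.41. Without vehicle 5 and GW2580 5 they were 0.62, 1.14, 0.84, 0.62 and 0.71 (adjusted p = 0.160, 0.146, 0.0752, 0.0914 and 0.130 in edgeR). The other 3, M6pr, Igf2r and Mitf, were at 178, 62.8 and 40.8 CPM in vehicle 5 against at most 170, 28.1 and 21.1 CPM. Their log2 fold changes were 0.44, -0.77 and -0.06 with all libraries. In the 8 libraries these were 0.53, -0.48 and 0.19 (adjusted p = 0.302, 0.296 and 0.612). These genes were singled out after their values were seen. The share of all genes with their highest vehicle level in vehicle 5 was not computed, so the 8 of 13 cannot be set against it.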
